A study of Mus musculus with 12 samples.

Results

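The 10 genes described here encode the machinery that displays peptides on MHC class I molecules in the mouse: the class I heavy chains H2-K1 and H2-D1, their partner B2m, the transporter and loading genes Tap1, Tap2 and Tapbp, the inducible proteasome subunits Psmb8, Psmb9 and Psmb10, and the regulator Nlrc5. They are given as a list of names, out of 54532 gene identifiers counted in 12 tumours. All 10 were among the 15650 genes that passed the filter on low counts and were tested. RNA was sequenced from tumours labelled malignant peripheral nerve sheath tumour, in mice given as strain C57B/6 and genotype WT. In every group the tumours had been started with an adenovirus that delivers Cas9 against Nf1 and a gene written Cdk2na and taken here for Cdkn2a, so the vehicle tumours received the same virus. The edits themselves were not read here. The vehicle group holds 4 tumours from mice gavaged with vehicle and harvested at the terminal time point. The regressing group holds 4 tumours from mice gavaged daily with 100 mg/kg palbociclib, a CDK4/6 inhibitor, and 1 mg/kg mirdametinib, a MEK inhibitor, and harvested during regression. The terminal combination group holds 4 tumours from mice on the same 2 drugs, taken at the terminal time point. Age, days of treatment and the cells that took up the virus are not given in the sources used here. Whether each tumour came from its own mouse is not stated, and the p-values therefore cover only the spread among these samples, which may be technical. Tumours are numbered 1 to 4 within a group, and the numbers are only names.

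Class I molecules show short peptides from inside the cell to CD8 T cells and natural killer cells. The immunoproteasome cuts proteins into peptides, the TAP transporter pumps them into the endoplasmic reticulum, tapasin holds an empty class I molecule beside the transporter, and the loaded heavy chain travels to the surface with beta-2 microglobulin. Interferon and NF-kB signalling raise transcription of the whole pathway, through factors of the IRF family and through Nlrc5, which acts at a conserved block of promoter elements. Nearly all nucleated cells make class I molecules, and leukocytes make a great deal of them.

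The promoters of H2-K1, H2-D1, B2m and Tap1 are printed because the RNA of these genes varied together across the tumours. Each is a window of 300 bases from 250 before to 50 after the RefSeq start on build GRCm38.p6, read on the strand of the gene: chr17:34000298-34000597 on the minus strand for H2-K1, chr17:35262844-35263143 on the plus strand for H2-D1, chr2:122147437-122147736 on the plus strand for B2m and chr17:34187306-34187605 on the plus strand for Tap1. Capitals mark matches, on either strand, to TGACG, the core of the X2 element, to ATTGG, the Y box or inverted CCAAT box, to AANNGAAA, the core bound by IRF factors, and to GGGA, 4 bases of any kind and CC, an NF-kB motif.
H2-K1: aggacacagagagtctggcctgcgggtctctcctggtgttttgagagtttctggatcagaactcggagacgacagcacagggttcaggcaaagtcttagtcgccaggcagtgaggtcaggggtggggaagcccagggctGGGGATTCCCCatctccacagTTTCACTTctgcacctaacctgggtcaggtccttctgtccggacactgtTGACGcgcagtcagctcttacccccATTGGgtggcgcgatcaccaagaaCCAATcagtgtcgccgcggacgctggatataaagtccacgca
H2-D1: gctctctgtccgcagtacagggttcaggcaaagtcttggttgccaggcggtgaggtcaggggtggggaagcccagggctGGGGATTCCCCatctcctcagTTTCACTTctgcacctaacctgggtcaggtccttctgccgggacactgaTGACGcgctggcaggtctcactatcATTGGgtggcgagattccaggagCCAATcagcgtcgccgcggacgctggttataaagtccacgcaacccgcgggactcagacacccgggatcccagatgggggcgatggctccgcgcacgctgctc
B2m: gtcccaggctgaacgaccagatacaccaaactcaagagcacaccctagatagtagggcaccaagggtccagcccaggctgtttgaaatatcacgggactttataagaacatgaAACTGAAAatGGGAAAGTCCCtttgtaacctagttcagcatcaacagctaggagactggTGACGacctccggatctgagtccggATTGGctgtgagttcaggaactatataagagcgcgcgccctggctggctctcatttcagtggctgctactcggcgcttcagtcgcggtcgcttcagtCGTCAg
Tap1: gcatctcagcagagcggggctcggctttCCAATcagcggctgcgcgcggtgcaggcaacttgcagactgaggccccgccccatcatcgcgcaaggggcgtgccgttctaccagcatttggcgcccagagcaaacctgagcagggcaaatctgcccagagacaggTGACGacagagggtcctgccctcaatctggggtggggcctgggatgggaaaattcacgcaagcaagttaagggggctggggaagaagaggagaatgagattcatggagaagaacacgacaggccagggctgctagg

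H2-K1, H2-D1 and B2m each held all 4 motifs. Of 32544 mouse windows of this length, 94 did, or 0.289%. Taken singly the motifs are common: TGACG was in 20.9% of the windows, ATTGG in 37.4%, AANNGAAA in 23.9% and the NF-kB motif in 20.8%. In H2-K1, H2-D1 and B2m a TGACG was followed by 20 other bases and then ATTGG on the same strand, and this spaced pair was in 31 of the 32544 windows, or 0.0953%. The pair began 41 bases before the RefSeq start in H2-K1, 101 before it in H2-D1 and 78 before it in B2m. These distances depend on where RefSeq places the start: the letters TATAAAGTCC follow the pair in H2-K1 and in H2-D1, but lie after the start in H2-K1 and before it in H2-D1. The near-palindromic NF-kB motif matched on both strands in overlapping positions in all 3 genes. H2-K1 and H2-D1 shared an unbroken stretch of 47 bases, which ends just after the NF-kB match. The Tap1 window held TGACG and, on the other strand, ATTGG, but not the spaced pair. It faces the window of Psmb9, with which it shares 275 bases read on opposite strands, so the same letters stand in both. Of the other members with a window, Tapbp held ATTGG, and the windows of Psmb8 and Psmb10 held none of the 4 motifs. The windows of H2-D1, Tapbp, Psmb8 and Psmb9 start inside the gene as GENCODE draws it, and Tap2 and Nlrc5 had no window in the table. The motifs and the spacing were chosen after the sequences had been seen. A match describes letters only, and no factor binding was measured here.

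Libraries held between 13194699 and 22639625 counted reads. The Cas9 targets were still transcribed, as edited genes can be: Nf1 lay between 10.2 and 22.1 CPM (reads scaled to the depth of the library) in vehicle, 11.6 and 19.5 in regressing and 12.2 and 23.8 in terminal combination tumours. Cdkn2a ran from 5.08 to 244 CPM in vehicle, 7.49 to 393 in regressing and 21.2 to 257 in terminal combination tumours. The defining Schwann lineage gene Sox10 was at or near 0 in the vehicle tumours, at 0.0856, 0, 0.0508 and 0 CPM, and reached at most 1.16 in the regressing and 2.10 in the terminal combination tumours. Other markers of the lineage were present in the vehicle tumours: Mbp, a myelin gene, at 6.29 to 12.6 CPM and Erbb3, a neuregulin receptor, at 1.07 to 37.0 CPM. The 7 Schwann lineage markers together summed to between 9.79 and 57.2 CPM over the 12 tumours. Skeletal muscle genes varied far more, from a sum of 454 CPM in vehicle 2 to 45260 in regressing 1. A title ending FFT, whose meaning the sources used here do not give, marks vehicle 1, vehicle 2, regressing 1 and terminal combination 1.

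The heavy chains H2-K1 and H2-D1 carry the peptide groove. H2-K1 (chromosome 17, 33996017 to 34000347, minus strand, GRCm38 here and below) measured 1216, 379, 493 and 621 CPM in vehicle tumours 1 to 4, 818, 1582, 428 and 3066 CPM in regressing tumours 1 to 4, and 849, 305, 641 and 590 CPM in terminal combination tumours 1 to 4. Regressing 4 and regressing 2 were the highest of the 12 and terminal combination 2 the lowest, and the 3 groups overlapped. H2-D1 (chromosome 17, 35262730 to 35267499, plus strand) measured 1436, 482, 687 and 760 CPM in vehicle, 1102, 1957, 571 and 3324 CPM in regressing, and 1238, 468, 778 and 782 CPM in terminal combination tumours. Its tumours fell in nearly the same order, again with regressing 4 highest and terminal combination 2 lowest. In bulk tumour RNA, fewer cells of a type and less RNA per cell cannot be told apart, here and in all that follows.

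B2m (chromosome 2, 122147686 to 122153083, plus strand), the light chain that every class I molecule needs, measured 1441, 647, 755 and 728 CPM in vehicle, 1112, 2018, 562 and 2876 CPM in regressing, and 884, 584, 727 and 954 CPM in terminal combination tumours. Regressing 4 and regressing 2 were again highest, but the lowest tumour was regressing 3, inside the same group. B2m lies on another chromosome than the heavy chains, and the gap within the regressing group, 5.12-fold from lowest to highest, was wider than within the vehicle group, 2.23-fold, or the terminal combination group, 1.63-fold.

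Tap1 and Tap2 form the peptide transporter, and tapasin, from Tapbp, ties it to class I. Tap1 (chromosome 17, 34187553 to 34197225, plus strand) measured 129, 32.0, 72.6 and 70.9 CPM in vehicle, 48.1, 159, 35.5 and 263 CPM in regressing, and 63.9, 23.8, 70.0 and 51.7 CPM in terminal combination tumours. Tap2 (chromosome 17, 34203527 to 34216321, plus strand) measured 92.4, 38.7, 64.2 and 88.1 CPM in vehicle, 65.05, 103, 61.8 and 173 CPM in regressing, and 106, 35.1, 90.0 and 59.8 CPM in terminal combination tumours. The spread of Tap1 over the 12 tumours, 11.1-fold, was more than that of Tap2, 4.93-fold, and in both genes regressing 4 was highest and terminal combination 2 lowest. Tapbp (chromosome 17, 33915899 to 33929292, plus strand) was the steadiest of the 10, at 347, 221, 238 and 322 CPM in vehicle, 307, 456, 266 and 641 CPM in regressing, and 406, 177, 354 and 340 CPM in terminal combination tumours. Its highest tumour stood 3.63-fold above its lowest, with the same tumours at the ends and all groups overlapping.

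Psmb8, Psmb9 and Psmb10 replace the constitutive catalytic subunits Psmb5, Psmb6 and Psmb7 in the immunoproteasome. Psmb8 (chromosome 17, 34197721 to 34201454, plus strand) measured 126, 46.6, 104 and 136 CPM in vehicle, 147, 259, 88.2 and 312 CPM in regressing, and 76.6, 39.8, 132 and 83.6 CPM in terminal combination tumours. In 3 of 4 regressing tumours Psmb8 was above every vehicle and every terminal combination tumour, and regressing 3 lay inside both groups. Psmb9 (chromosome 17, 34181987 to 34187764, minus strand) measured 52.4, 16.4, 35.0 and 42.6 CPM in vehicle, 37.2, 77.6, 20.7 and 110 CPM in regressing, and 23.9, 12.2, 30.99 and 27.1 CPM in terminal combination tumours. Psmb10 (chromosome 8, 105935735 to 105938444, minus strand) measured 90.1, 67.3, 83.5 and 150 CPM in vehicle, 101, 152, 91.3 and 174 CPM in regressing, and 59.3, 31.1, 143 and 88.4 CPM in terminal combination tumours. For Psmb10, vehicle 4 and terminal combination 3 came next, close behind regressing 4 and regressing 2. Psmb8 also had vehicle 4 and terminal combination 3 above vehicle 1, at 136, 132 and 126 CPM.

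Nlrc5 (chromosome 8, 94434356 to 94527272, plus strand), the transactivator of class I genes, was the member with the fewest reads, 52 in its lowest library. It measured 25.9, 4.36, 12.9 and 9.57 CPM in vehicle, 7.77, 28.7, 3.99 and 66.0 CPM in regressing, and 16.7, 3.10, 8.21 and 4.56 CPM in terminal combination tumours. It also had the widest range of the 10, 21.3-fold over the 12 tumours and 16.5-fold within the regressing group. Regressing 4, regressing 2 and vehicle 1 were its highest tumours in that order.

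Per length, in CPM per kilobase of merged GENCODE exons, the median over 12 tumours ordered the members as B2m 953, H2-D1 302, H2-K1 215, Tapbp 91.3, Psmb10 53.2, Psmb8 34.1, Tap2 20.2, Tap1 12.2, Psmb9 9.01 and Nlrc5 1.05. Merged exons overstate the length of genes with many rare isoforms, so the level of such genes is understated. Neighbours in this order overlapped widely: H2-D1 ran from 181 to 1289 and H2-K1 from 104 to 1043 CPM per kilobase. B2m, from 653 to 3344, and Nlrc5, from 0.365 to 7.77, stood at the ends.

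**Figure D1:**
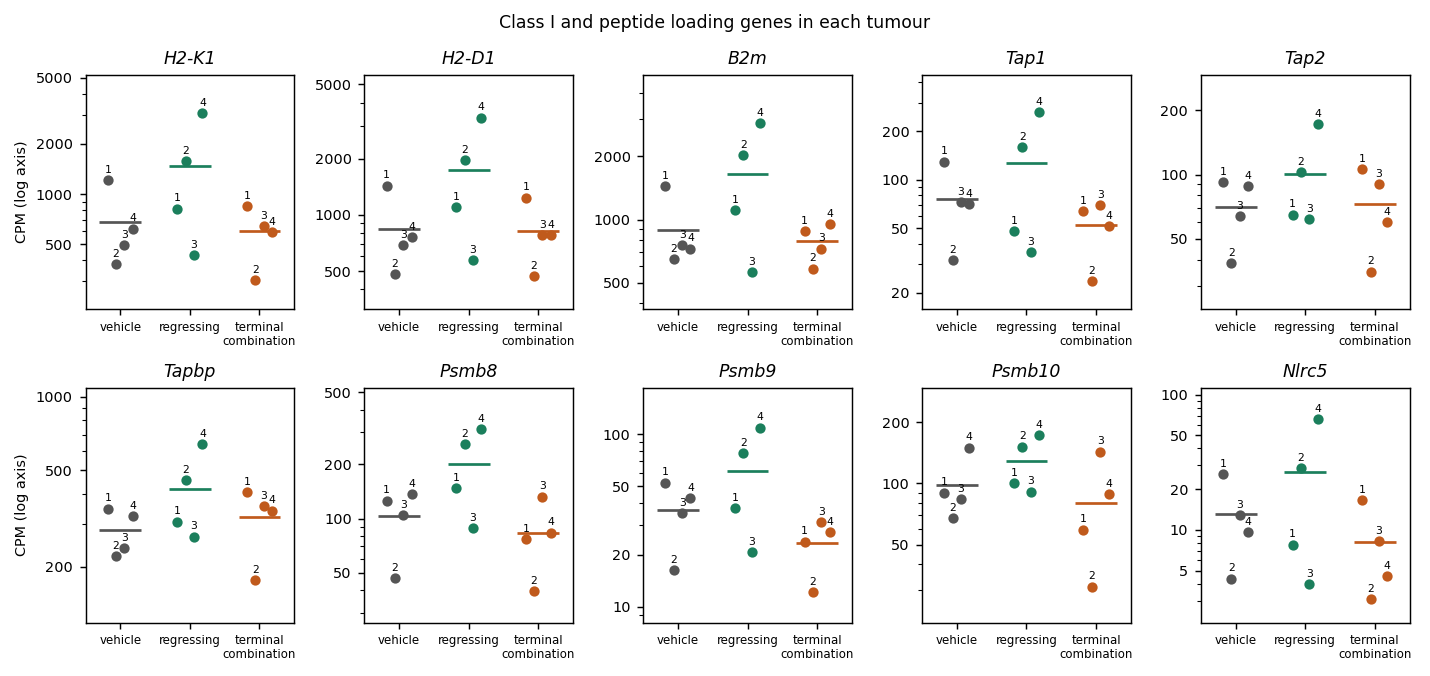
CPM (log axis) of the 10 genes in each tumour, 1 point per tumour with its number and a bar at the group mean. Regressing tumours 4 and 2 lie at the top of most panels, regressing 3 lies among or below the vehicle tumours, and the groups overlap in every panel.

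During regression, all 10 genes had a higher fitted level than in vehicle tumours, a sign shared by 48.5% of all genes, and none passed the test. H2-K1 differed by 1.12 ± 0.57 on the log2 scale (fitted difference ± SE), H2-D1 by 1.05 ± 0.51, Nlrc5 by 1.01 ± 0.83, Psmb8 by 0.96 ± 0.46 and B2m by 0.88 ± 0.44. Smaller differences were fitted for Psmb9 (0.74 ± 0.50), Tap1 (0.73 ± 0.62), Tapbp (0.56 ± 0.32), Tap2 (0.51 ± 0.42) and Psmb10 (0.40 ± 0.42). The median over the 10 was 0.81, beside -0.02 over all genes tested. Adjusted p in edgeR's quasi-likelihood test lay between 0.41 for Psmb8 and 0.709 for Psmb10, over 15650 genes, of which 0% were called. None of the 10 was below an unadjusted p of 0.05 in edgeR, a level that 12.7% of all genes reached. DESeq2 called none of the 10 after adjustment, beside 3.07% of the 15528 genes to which it gave an adjusted p. It put 4 of the 10, H2-K1, H2-D1, B2m and Psmb8, under an unadjusted p of 0.05, beside 15% of all genes. No member was separated from the vehicle group, while 3.5% of all genes lay higher and 4.13% lower with no overlap.

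Single tumours carried much of this. Without regressing 4 the median over the 10 was 0.29, and without vehicle 1 it was 1.11. Leaving out regressing 3 gave a median of 1.10, with 6 of the 10 under an unadjusted p of 0.05 in edgeR, beside 13.7% of all genes in that fit, and adjusted p between 0.242 and 0.613. All 10 kept a positive sign in each of the 12 fits that left out 1 library. Over the 8 libraries without the FFT ending the median was 0.97, and with the ending as a term in the fit it was 0.75. The 3 tumours with the highest skeletal muscle score include regressing 1 and regressing 4, and without them the median was 0.39.

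By DESeq2, markers of several other tissues and cell types were higher in the regressing group. The 4 adipocyte markers summed to 56.3 to 264 CPM in the regressing tumours, above the 3.66 to 25.8 CPM of every vehicle tumour. DESeq2 called all 4 of them higher, as well as 4 of 5 skeletal muscle and 3 of 3 red blood cell markers, and edgeR called none of these after adjustment. Among the 4 plasma cell markers DESeq2 called 2 higher: Jchain, which joins antibody subunits, differed by 4.02 ± 1.09 and Mzb1, a chaperone of antibody-secreting cells, by 4.09 ± 1.11 in the edgeR fit (adjusted p = 0.24 for both in edgeR, 0.00261 and 0.00923 in DESeq2). Of the 4 plasma cell markers, 3 had a higher and 1, Sdc1, a lower fitted level. Sdc1 differed by -1.17 ± 0.41 in the edgeR fit and was not called (adjusted p = 0.285 in edgeR, 0.11 in DESeq2). Over all genes, DESeq2 called 3.07% in this comparison and edgeR 0%. The part of these tissues and cells in the class I difference was not tested.

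At the terminal time point under the drugs, the fitted levels of the 10 genes lay on both sides of their vehicle levels, and none passed the test. Tap2 (0.04 ± 0.42) and Tapbp (0.18 ± 0.32) had a higher fitted level than in vehicle tumours, as did 50.4% of all genes. The other 8 had a lower one, as did 49.6% of all genes, from H2-D1 (-0.04 ± 0.51) and B2m (-0.18 ± 0.44) to Psmb9 (-0.64 ± 0.50) and Nlrc5 (-0.70 ± 0.83). The median was -0.23, beside 0.00 over all genes. Adjusted p in edgeR was between 0.889 and 0.994, with 0% of all genes called, and none of the 10 was under an unadjusted p of 0.05 in edgeR, beside 5.94% of all genes. DESeq2 also called none of the 10, beside 0.092% of all genes. It put none under an unadjusted p of 0.05, beside 7.86% of all genes. All 10 overlapped between the groups, while 1.21% of all genes lay higher and 1.3% lower with no overlap. The SE of these differences lay between 0.32 and 0.83, and the lowest unadjusted p of the 10 in edgeR was 0.228. Directions were not stable: leaving out vehicle 1 gave H2-K1, H2-D1 and B2m values of 0.26, 0.34 and 0.15, and the median over the 10 was 0.01 without it and -0.04 without terminal combination 2.

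Between the 2 groups given the drugs, all 10 genes had a lower fitted level at the terminal time point than during regression, a sign shared by 49.2% of all genes, and again none passed the adjusted test. Nlrc5 differed by -1.71 ± 0.85, Psmb9 by -1.38 ± 0.51, H2-K1 by -1.30 ± 0.57, Psmb8 by -1.28 ± 0.46, Tap1 by -1.27 ± 0.62, H2-D1 by -1.09 ± 0.52 and B2m by -1.06 ± 0.44. Psmb10 (-0.68 ± 0.42), Tap2 (-0.47 ± 0.42) and Tapbp (-0.39 ± 0.32) differed less. The median was -1.18, beside 0.01 over all genes. Adjusted p in edgeR ranged from 0.692 to 0.817, with 0% of all genes called. Psmb8, Psmb9, B2m and H2-K1, 4 of the 10, were lower at an unadjusted p under 0.05 in edgeR, beside 2.9% of all genes in that direction and 7.02% in either. DESeq2 called none of the 10, beside 0.335% of all genes. It put 7 of the 10 under an unadjusted p of 0.05, beside 8.94% of all genes. No member was separated between the groups, while 1.51% of all genes lay lower with no overlap. Without regressing 4 the median was -0.64 and none of the 10 was under an unadjusted p of 0.05 in edgeR. That number was 1 without terminal combination 2, 2 without regressing 2, 6 without terminal combination 1 and 7 without regressing 1 or regressing 3. Between 4.58% and 8.84% of all genes reached that level in these fits. Without the 3 tumours of highest muscle score, 2 of which are regressing tumours, the median was -0.57 and Tap2 and Tapbp stood at 0.04 and 0.02.

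A joint test of any difference among the 3 groups gave the 10 genes adjusted p between 0.518 and 0.782 in edgeR, with 0% of all genes called. Psmb8 was the one member under an unadjusted p of 0.05, beside 9.46% of all genes. DESeq2 called none of the 10, beside 1.71% of all genes. It put 5 of the 10 under an unadjusted p of 0.05, beside 13% of all genes. The 3 pairwise comparisons share their samples and are not independent of each other.

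**Figure D2:**
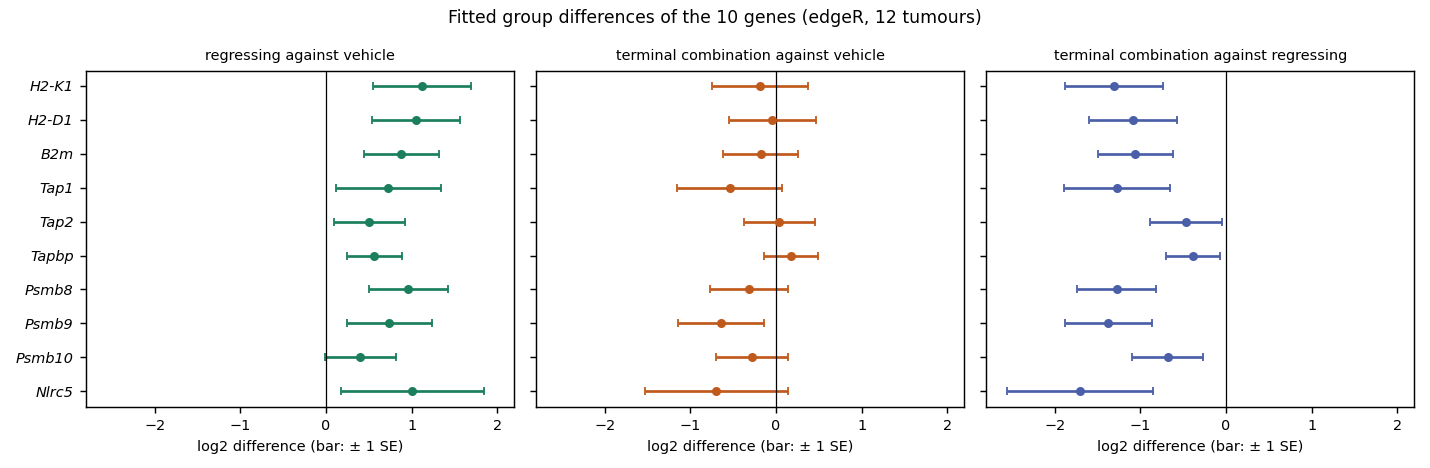
Fitted log2 differences of the 10 genes in the 3 comparisons (points) with 1 standard error to each side (bars), from the edgeR fit to 12 tumours. All 10 points lie above 0 for regressing against vehicle and below 0 for terminal combination against regressing, and none passed an adjusted p of 0.05.

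Ratios of reads within a tumour do not depend on how the library is scaled. The ratio of Psmb8 to Psmb5, the inducible and constitutive versions of the same catalytic position, was 1.21, 0.420, 0.917 and 1.16 in vehicle, 1.36, 2.23, 0.860 and 2.37 in regressing, and 0.684, 0.347, 1.21 and 0.803 in terminal combination tumours. In 3 of 4 regressing tumours it was above every other tumour, and in regressing 3 it was not. The log2 ratio differed by 0.88 between regressing and vehicle tumours (exact two-sided permutation test, p = 0.1429) and by -1.19 between terminal combination and regressing tumours (exact permutation p = 0.0571, where 4 against 4 allows no p below 0.0286). Adjusted over the 15 ratio tests, both were 0.6122.

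The ratio of Psmb9 to Psmb6 ranged from 0.0811 to 0.306 in vehicle, 0.0825 to 0.574 in regressing and 0.0680 to 0.173 in terminal combination tumours. That of Psmb10 to Psmb7 ranged from 0.383 to 0.738, from 0.417 to 0.921 and from 0.159 to 0.857 in the same order. The balance of the heavy chains varied little: H2-K1 reads per H2-D1 read stayed between 0.652 and 0.922 in all 12 tumours, while the levels of the 2 genes spanned 10.04-fold and 7.10-fold. Tap1 per Tap2 ranged from 0.575 to 1.55, with regressing 2, regressing 4 and vehicle 1 the highest. None of the 15 ratio tests had an exact permutation p under 0.05, before or after adjustment.

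**Figure D3:**
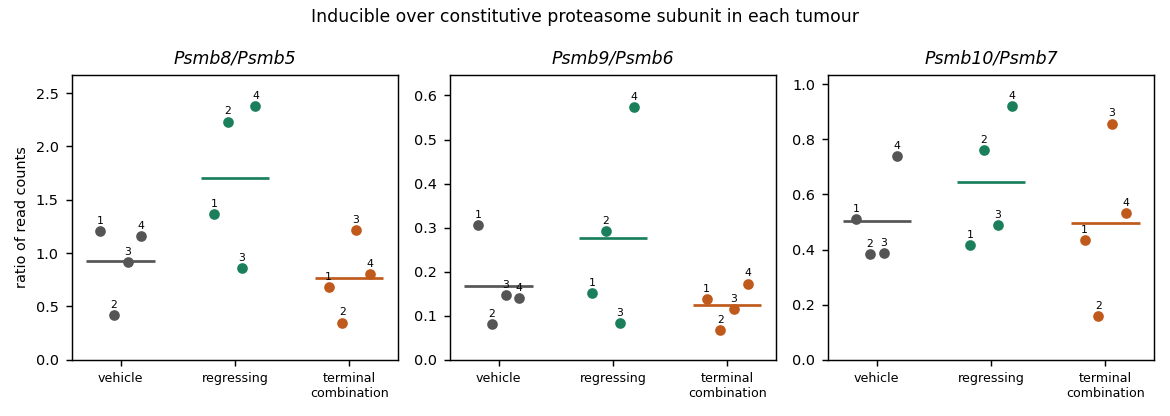
Ratio of read counts of an inducible proteasome subunit over its constitutive counterpart in each tumour, with the tumour's number and a bar at the group mean. For Psmb8 over Psmb5, regressing 1, 2 and 4 reach 1.36, 2.23 and 2.37, while regressing 3 is at 0.860, inside the range of the other groups.

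Although no group difference passed the test, the 10 genes varied together from tumour to tumour. Over the 45 pairs, Pearson's r of log2 CPM across 12 tumours ran from 0.568 to 0.993 with a median of 0.884, and 44 pairs had a permutation p, adjusted over the 45, under 0.05. Spearman's rho ran from 0.503 to 0.979, and 41 pairs passed. The closest pair was H2-K1 with H2-D1, at r = 0.993, and the pair that did not pass was B2m with Psmb10 (r = 0.568, rho = 0.503, adjusted permutation p = 0.0549). Psmb10 was the loosest member: its r was 0.88 with Psmb8 and 0.82 with Psmb9 but 0.60 with H2-D1 and 0.58 with Nlrc5.

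Without the 2 tumours farthest from the median of the first gene of a pair, r stayed positive in all 45, from 0.208 to 0.981 with a median of 0.724. Over the 8 tumours without the FFT ending the median was 0.924 and 43 pairs passed. The 4 tumours with the ending are too few for a correlation of their own. Averaged over the 10 genes after standardising each, regressing 4 ranked 1, regressing 2 ranked 2 and vehicle 1 ranked 3, while terminal combination 2, vehicle 2 and regressing 3 ranked last. The highest and the lowest tumours thus came from more than 1 group, and the 4 regressing tumours ranked 1, 2, 7 and 10.

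**Figure D4:**
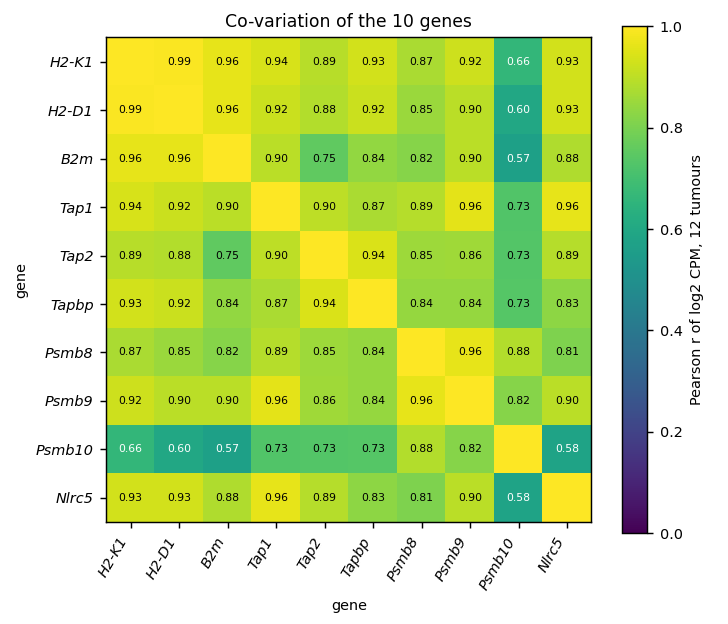
Pearson's r of log2 CPM over 12 tumours for each pair of the 10 genes, from 0 (dark) to 1 (yellow). Pairs among H2-K1, H2-D1, B2m and Tap1 are at 0.895 or above, and some pairs outside them are as high, such as Psmb8 with Psmb9 at 0.962. The row of Psmb10 is the lowest, down to 0.57 with B2m.

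The leukocyte gene Ptprc varied with most of the class I genes. Ptprc, the pan-leukocyte phosphatase CD45, was added to the analysis after the data had been seen. It measured 102, 24.01, 54.2 and 45.3 CPM in vehicle, 38.9, 91.6, 25.5 and 210 CPM in regressing, and 56.8, 27.8, 35.6 and 55.7 CPM in terminal combination tumours. Its 3 highest tumours, regressing 4, vehicle 1 and regressing 2, are also the 3 highest for H2-K1. Across 12 tumours r with Ptprc was 0.927 for H2-K1, 0.926 for H2-D1 and B2m, 0.94 for Tap1, 0.929 for Nlrc5, 0.883 for Psmb9, 0.83 for Tapbp, 0.825 for Tap2, 0.765 for Psmb8 and 0.523 for Psmb10. Of the 10 relations, 9 passed a permutation test of r adjusted over the 10, and Psmb10 did not (adjusted p = 0.0818). Spearman's rho was 0.895 for B2m, 0.888 for H2-D1 and Nlrc5, 0.846 for H2-K1 and Tap1, 0.783 for Tapbp, 0.776 for Tap2 and Psmb9, 0.531 for Psmb8 and 0.385 for Psmb10, and by rho Psmb8 did not pass either (adjusted permutation p = 0.0887). Without vehicle 2 and regressing 4, the tumours farthest from the median of Ptprc, r stayed at 0.834 to 0.888 for H2-K1, H2-D1, B2m, Tap1 and Nlrc5 and fell to 0.548 for Psmb8 and 0.321 for Psmb10.

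**Figure D5:**
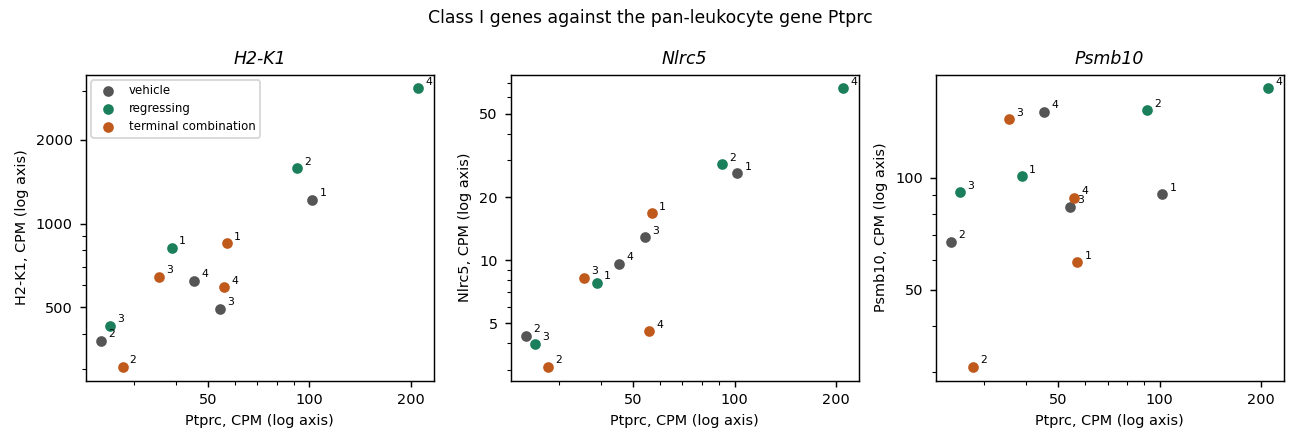
H2-K1, Nlrc5 and Psmb10 against Ptprc, in CPM on log axes, 1 numbered point per tumour. H2-K1 and Nlrc5 climb with Ptprc from vehicle 2 to regressing 4 (r = 0.927 and 0.929), and Psmb10 does so loosely (r = 0.523).

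Regressing 4 had the highest sum for several marker lists. Its 7 T cell markers summed to 341 CPM, against 17.9 to 85.1 in the other regressing, 32.3 to 40.6 in the vehicle and 15.4 to 59.7 in the terminal combination tumours. Its 4 B cell markers summed to 163 CPM, against 1.61 to 16.0 in all other tumours, and its 6 NK and cytotoxic markers to 114 CPM, against 2.38 to 64.5. The pan-leukocyte and dendritic cell sums, and the adipocyte sum, which lay above every vehicle tumour in all 4 regressing tumours, were also highest there. The plasma cell sum, most of which is Xbp1 and Sdc1, was lowest there, at 269.7 CPM against 315 to 501. The macrophage sum was highest in vehicle 1, at 2547 CPM, followed by regressing 2 at 2306, with regressing 4 at 1316. No marker of the leukocyte lists was at 0 in every tumour of a group. The part of these cells in the level of the 10 genes was not tested.

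Class Ib and class I-like genes, relatives of the classical heavy chains, included the genes closest to the members. Of 22 listed, 20 were found and 14 tested. In regressing against vehicle tumours 11 of the 14 were higher, beside 48.5% of all genes, with a median of 0.54. None was called by edgeR or DESeq2, beside 0% and 3.07% of all genes, and 2 were under an unadjusted p of 0.05 in edgeR, beside 12.7%. In terminal combination against regressing tumours 11 were lower, beside 49.2% of all genes, with a median of -1.20. None was called by edgeR or DESeq2, beside 0% and 0.335% of all genes. Under an unadjusted p of 0.05 in edgeR were 6, all lower, beside 2.9% of all genes in that direction. H2-Q6 differed by 2.16 ± 0.97 during regression (edgeR adjusted p = 0.385) and H2-T22, a ligand of gamma delta T cells, by 1.18 ± 0.51 (edgeR adjusted p = 0.367). Between the drug groups they differed by -2.90 ± 1.00 and -1.41 ± 0.51 (edgeR adjusted p = 0.692 for both).

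Among the 15640 other tested genes, the 5 whose log2 CPM was most like the mean of the standardised members over 12 tumours were all class I genes of chromosome 17: H2-Q4 (r = 0.983), H2-Q6 (r = 0.975), H2-T10 (r = 0.967), H2-Q7 (r = 0.965) and H2-M3 (r = 0.961). H2-Q6 ran from 6.37 CPM in terminal combination 2 to 478 in regressing 4, with regressing 2 at 219 and vehicle 1 at 93.1. H2-M3, which presents formylated peptides, ran from 12.3 in terminal combination 2 to 44.7 in regressing 4. Close copies can share reads: 32% of the 50-base stretches in H2-Q6 transcripts, 32.9% in H2-T10, 26.4% in H2-Q7, 21.8% in H2-Q4 and 34.5% in H2-T22 also occur in transcripts of other genes. The share was 0.576% in H2-M3. It was 9.63% in H2-K1 and 12.8% in H2-D1, so their values are less certain than those of B2m, Psmb9, Psmb10 and Nlrc5, for which it was 0. Tap1 and Psmb9 overlap by 212 exon bases on opposite strands, and whether the counting used strand is not given in the sources used here. Genes on the other strand also overlap 24.9% of the exon bases of Tapbp, 14.7% of Psmb8 and 14.1% of Tap2.

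The proteasome activator subunits Psme1 and Psme2, which open the proteasome barrel, differed by 0.47 ± 0.28 and 0.40 ± 0.26 in regressing against vehicle tumours (edgeR adjusted p = 0.51 and 0.53) and by -0.53 ± 0.28 and -0.42 ± 0.26 in terminal combination against regressing tumours (edgeR adjusted p = 0.739 and 0.747). The 14 constitutive 20S genes had a median difference of 0.01 between regressing and vehicle tumours, with values from -0.25 to 0.18. None was called by edgeR or DESeq2, beside 0% and 3.07% of all genes. None was under an unadjusted p of 0.05 in edgeR, beside 12.7% of all genes. Psmb5, Psmb6 and Psmb7 differed by 0.03 ± 0.11, 0.05 ± 0.22 and 0.08 ± 0.15 in that comparison, and Psma1 by -0.22 ± 0.13. In terminal combination against regressing tumours Psmb7 differed by -0.29 ± 0.15 and Psma1 by -0.06 ± 0.13 (edgeR adjusted p = 0.725 and 0.936).

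The 10 chaperone and trimming genes went both ways, with 4 higher and 6 lower in regressing against vehicle tumours and a median of -0.07. None was called by edgeR or DESeq2, beside 0% and 3.07% of all genes. Hspa5, the main chaperone of the endoplasmic reticulum, differed by -0.53 ± 0.19 and Nrdc, a peptidase named Nrd1 in the annotation, by 0.55 ± 0.22 (edgeR adjusted p = 0.286 and 0.329), which put both, 2 of the 10, under an unadjusted p of 0.05 in edgeR, beside 12.7% of all genes. Of the 3 genes for removal of surface class I, Wwp2 differed by -0.03 ± 0.15 and Tmem127 by 0.07 ± 0.12 in the same comparison (edgeR adjusted p = 0.937 and 0.828).

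Regulators of class I transcription went both ways: of 25 listed and 24 tested, 12 were higher and 12 lower in regressing against vehicle tumours. Their median was -0.01. None was called by edgeR or DESeq2, beside 0% and 3.07% of all genes, and 1, Jak1, was under an unadjusted p of 0.05 in edgeR, beside 12.7%. Irf1, an interferon-induced activator, differed by 0.22 ± 0.31 (edgeR adjusted p = 0.789), and its r to the mean of the members was 0.846, rank 236 of 15640. The ligand gene Ifng had between 0 and 13 reads in a library, too few to compare groups. Jak1 and Rela, the genes of this list with the smallest joint p, differed by -2.84 ± 1.01 in regressing against vehicle and by 1.57 ± 0.62 in terminal combination against regressing tumours (edgeR adjusted p = 0.286 and 0.692), and each had 1 tumour far above all others, vehicle 3 at 6012 CPM of Jak1 and terminal combination 4 at 870 CPM of Rela.

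The 6 class II genes present peptides from outside the cell on professional presenting cells. Their median difference was 0.82 in regressing against vehicle and -0.87 in terminal combination against regressing tumours. EdgeR called none in either comparison, beside 0% of all genes, and DESeq2 none, beside 3.07% and 0.335% in that order. None was under an unadjusted p of 0.05 in edgeR, beside 12.7% and 7.02% of all genes. H2-Aa differed by 1.07 ± 0.67 and H2-Eb1 by 1.02 ± 0.67 during regression (edgeR adjusted p = 0.519 and 0.538). Ciita, the class II counterpart of Nlrc5, differed by 0.46 ± 0.66 (edgeR adjusted p = 0.791). The r to the mean of the members was 0.61 for H2-Aa and 0.569 for H2-Eb1, against 0.953 for H2-T22, over the same 12 tumours. The lists overlapped in this r, which ran from 0.569 to 0.7 over the 6 class II genes. Over the 14 class Ib and class I-like genes tested it ran from -0.208 to 0.983.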

How the data were processed

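Per the labels' protocols, RNA of 12 mouse tumours was extracted by RNeasy mini kit and sequenced from TruSeq stranded mRNA libraries. The authors deposited raw counts, as whole numbers for each Ensembl gene in each library. Per the submitters' processing notes, HISAT2 2.2.1, Salmon and DESeq2 1.24.0 were used with builds mm10 and GRCm38.p6; the counter, strand setting and annotation release are not given in the sources used here. Symbols and positions came from GENCODE M21 (GRCm38), which held 54409 of 54532 identifiers; H2-Q8 and H2-Q9 were not matched. Promoters came from RefSeq (GRCm38.p6).

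The filter was filterByExpr with its defaults (a minimum count of 10 and a minimum total of 15). TMM scaling was applied, and edgeR's quasi-likelihood test was run on all 12 libraries, with Benjamini-Hochberg adjustment over 15650 genes and a threshold of 0.05. The SE of a log2 difference was derived from the F statistic. CPM use TMM-adjusted library sizes; correlations use log2 CPM with a prior count of 2 and 100000 resamples; ratios use a pseudocount of 0.5 and an exact permutation test. The edgeR script was checked on simulated counts. Tools were R 4.3.3, edgeR 4.0.16, DESeq2 1.42.0, Python 3.11.15, scipy 1.17.1 and matplotlib 3.10.9.

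The members, gene lists and comparisons were chosen with earlier results of these data known. Besides the 10 members, the genes named are the 2 of each pathway list with the smallest joint p over the 3 groups, Psmb5, Psmb6, Psmb7, Irf1, Ifng and Ciita, and the 5 most like the members, with 1 further gene not reported here; Ptprc, the neighbours of Jak1 and Rela, and the tumours left out for muscle were chosen after their values were seen. Alternatives were RLE scaling, no filter, DESeq2, other prior counts, the FFT ending as a covariate or left out, the 2 groups alone and leaving out each library.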

Additional observations from a re-analysis of the deposited data

Results flagged for a closer look

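In 6 of 105 groups of 4 tumours checked, 1 tumour stood so far from the other 3 that its gap exceeded Dixon's 95% critical value for a group of that size. Chance flags about 1 in 20 such groups, and the groups share tumours and correlated genes.

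One member was among them. B2m was 1441 CPM in vehicle 1, against 647 to 755 CPM in the other vehicle tumours. Vehicle 1 also had the highest macrophage marker sum of the 12 tumours, 2547 CPM, and the highest Ptprc of its group, 102 CPM; their part in the B2m value was not tested.

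The others are regulators and class II genes. Jak1, the kinase behind interferon receptors, was 6012 CPM in vehicle 3, against 196 to 277 in the other vehicle tumours. Rela, a subunit of NF-kB, was 870 CPM in terminal combination 4, against 102 to 137 in the others of its group. In the same tumour H2-Aa was 860 CPM, against 144 to 241, and Ciita 18.6 CPM, against 4.11 to 5.04. Ifng was 0.152 CPM in vehicle 3, which is 3 reads, and 0 in the other vehicle tumours. Vehicle 3 and terminal combination 4 ranked 8 and 9 of 12 for the mean of the 10 members.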

How the results depend on the processing

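No paired analysis was possible because the titles carry no replicate numbers that pair tumours across groups. No member was called in any comparison under any alternative, each library left out in turn included. Over all genes, where edgeR called 0, DESeq2 called 477 for regressing against vehicle, 14 for terminal combination against vehicle, 51 for terminal combination against regressing and 261 for any difference. Leaving out 1 library gave 0 to 1 calls in the last 2 comparisons, the 1 call without terminal combination 4. The cause was not tested. Signs turned in the following cases, none of them called. In terminal combination against vehicle tumours, leaving out 1 library moved H2-K1 between -0.41 and 0.26, H2-D1 between -0.32 and 0.34, B2m between -0.31 and 0.15 and Tap2 between -0.20 and 0.27, with vehicle 1 and terminal combination 2 giving the highest values. Without the FFT libraries B2m was 0.026 and Tap2 -0.30, and with the ending as a covariate H2-D1 was 0.006. Without the 3 tumours of highest muscle score, an alternative chosen after seeing the data, H2-K1 was 0.026 and H2-D1 0.14 against vehicle, and Tap2 was 0.042 and Tapbp 0.016 against regressing tumours. With 1 library left out, the log2 ratio ran from -0.646 to 0.03 for Psmb8 to Psmb5 and from -0.55 to 0.26 for Psmb10 to Psmb7 in terminal combination against vehicle, and from -0.046 to 0.059 for H2-K1 to H2-D1 and -0.23 to 0.25 for Tap1 to Tap2 in regressing against vehicle tumours. Depth limits Ifng, with at most 13 reads in a library.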

Other observations

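The 2 regulators that stood apart in 1 tumour each did so with their neighbours on the chromosome, which were looked at after the values had been seen. In vehicle 3, where Jak1 was 28.4-fold above the median of the other 11 tumours, the 3 other tested genes within 200000 bases of it on chromosome 4 were also highest there: Raver2 at 672 CPM (234-fold), Ak4 at 1320 CPM (185-fold) and Cachd1 at 268 CPM (15.1-fold). Within 3 megabases of Jak1, 16 of 24 tested genes were at least 4-fold above that median in vehicle 3, as were 2.198% of all genes. In terminal combination 4, where Rela was 8.18-fold above the median of the others, 17 of 21 tested neighbours were highest in that tumour, among them Fosl1 at 405 CPM (8.05-fold) and Cfl1 at 6853 CPM (6.05-fold). Within 3 megabases of Rela, 37 of 158 tested genes were at least 4-fold above that median there, beside 2.716% of all genes. No DNA was measured in the data used here. The 10 class I genes were not high in either tumour: H2-K1 was 493 CPM in vehicle 3 and 590 CPM in terminal combination 4.

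The 5 skeletal muscle markers summed to 45260 CPM in regressing 1, 27660 in terminal combination 2 and 22640 in regressing 4. Those 3 tumours ranked 7, 12 and 1 for the mean of the 10 class I genes. The part of muscle RNA in the level of the 10 genes was not tested.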
